A study of Mus musculus with 12 samples.

Results

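Endothelial cells line the blood vessels of the brain and, with their tight junctions and selective carriers, form the blood-brain barrier. A set of 34 genes that mark these cells or build the barrier was followed here through mouse hippocampus, out of 78298 genes in the expression table. Members were taken by gene symbol from a list of names, and each symbol was found in the table. All 34 passed the filter on low counts, which left 18600 genes for testing. By role they comprised 8 junction and adhesion proteins, 7 transport proteins, 9 receptors, 4 transcription factors and 6 surface, secreted or enzyme proteins.

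The samples were 12 poly(A) RNA libraries of hippocampus, 4 for each of 3 groups of male C57BL/6 mice. The animals were 6 to 8 weeks old when bought, and those with a sucrose preference above 50% after 7 days of acclimation entered the study. The Control group had saline and no stress. The Model group also had saline, and was exposed for 28 days to chronic unpredictable mild stress, in which the mild stressor changes daily, as a model of depression. Treatment mice had the same 28 days of stress and were given poricoic acid A, a compound named for the fungus Poria cocos, at 20 mg/kg by gavage once a day for 14 days from day 15. The labels give the number of mice per group and do not tie each library to 1 mouse, so p-values measure the spread between these libraries. A design without an unstressed group given the compound leaves the effect of the compound alone unmeasured.

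In the brain, endothelial cells hold neighbouring cells together with VE-cadherin, claudin-5 and occludin, pump drugs back into the blood with ATP-driven exporters, and let glucose, thyroid hormone and lipids pass through dedicated carriers. Their growth and stability depend on the VEGF receptors and on the angiopoietin receptor Tie2, and ETS and SOX family transcription factors maintain their identity. Endothelial cells are a small share of brain tissue, so their transcripts are diluted in whole-tissue RNA, and in such bulk samples fewer cells of a type and less RNA per cell cannot be told apart.

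Total estimated counts ranged from 17083260 to 27479083 per library, and the 34 genes together took 0.0952% to 0.123% of them. The smallest count of any member in any library was 52, for Fli1. Markers of hippocampal subfields and of endothelial cells were detected in every library. The number of libraries, 4 per group, limited the precision more than depth did for most members: the biological coefficient of variation over all genes was 10.69%.

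Promoter windows from 250 bases before to 50 bases after the annotated start were given for 21 of the 34 genes in RefSeq on GRCm38.p6, and the other 13 genes have none here. The bases before the start are shown for 4 genes whose values are described in full below and for Cldn5, the gene of the main tight junction claudin. Capitals mark the letters AGGAAG or, on the other strand, CTTCCT, a form of the core that ETS factors such as Erg and Fli1 are known to recognise.
Slco1a4, chr6:141856221-141856470, minus strand: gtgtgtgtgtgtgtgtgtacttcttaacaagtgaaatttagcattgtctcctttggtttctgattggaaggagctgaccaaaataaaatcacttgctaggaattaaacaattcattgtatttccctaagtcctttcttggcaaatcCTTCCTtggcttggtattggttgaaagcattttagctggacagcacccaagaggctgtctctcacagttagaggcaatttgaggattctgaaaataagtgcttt
Abcb1a, chr5:8566841-8567090, plus strand: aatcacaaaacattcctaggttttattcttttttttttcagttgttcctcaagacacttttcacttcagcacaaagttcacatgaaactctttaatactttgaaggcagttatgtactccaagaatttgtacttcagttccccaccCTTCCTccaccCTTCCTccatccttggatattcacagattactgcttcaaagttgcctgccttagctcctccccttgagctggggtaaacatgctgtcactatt
Tie1, chr4:118489850-118490099, minus strand: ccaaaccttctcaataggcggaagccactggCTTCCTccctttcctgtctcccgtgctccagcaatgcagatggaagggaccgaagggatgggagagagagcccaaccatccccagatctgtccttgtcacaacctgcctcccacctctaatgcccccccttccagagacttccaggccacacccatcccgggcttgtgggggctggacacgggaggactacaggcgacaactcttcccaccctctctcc
Itm2a, chrX:107403361-107403610, minus strand: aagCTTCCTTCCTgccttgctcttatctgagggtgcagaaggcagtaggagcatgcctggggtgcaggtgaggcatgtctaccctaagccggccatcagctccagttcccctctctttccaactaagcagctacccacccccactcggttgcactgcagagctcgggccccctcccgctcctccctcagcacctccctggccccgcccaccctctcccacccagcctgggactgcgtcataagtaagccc
Cldn5, chr16:18776597-18776846, plus strand: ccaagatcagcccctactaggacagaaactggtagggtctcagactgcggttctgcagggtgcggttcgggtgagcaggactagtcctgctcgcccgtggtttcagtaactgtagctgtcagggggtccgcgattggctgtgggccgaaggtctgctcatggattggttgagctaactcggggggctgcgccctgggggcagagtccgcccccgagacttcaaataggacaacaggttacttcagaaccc
The Slco1a4 stretch holds 1 match, Abcb1a 2 and Cldn5 none, and the 2 in Itm2a overlap. AGGAAG or its reverse complement was found in the windows of 14 of 21 members (66.7%), against 38.4% of the 27025 genes in the table. A gene counted if any of its windows matched, and the members had 29 windows, where all genes had 32851. Per window the shares were 58.6% and 35.4%. ACAATGG, a SOX motif, was in none of the 21, against 4.15% of all genes. The GC box GGGCGG was in 10 members (47.6%, against 38.2%), and TATAAA in 6 (28.6%, against 15.7%), each searched on both strands. Per window these shares were 41.4% against 35.7% and 24.1% against 13.6%. These letter matches are descriptions and not binding sites.

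Levels can be compared between genes only per length, which the deposited FPKM (fragments scaled by transcript length and library depth) gives. Over 12 libraries the mean FPKM of the members ran from 1.16 for Fli1 to 309.6 for Bsg, with a median of 5.69. Bsg encodes basigin, a surface glycoprotein that accompanies lactate carriers and is also made by other brain cells. Ly6c1, a surface antigen of capillary endothelium, came next at 49.7 FPKM, followed by Itm2a at 24.6, Egfl7 at 24.3, Tjp1 at 24.02, Slco1c1 at 22.1, Slc2a1 at 22.0 and Ramp2 at 20.1. The order of the genes from Itm2a to Ramp2 changed between groups. Itm2a was the highest of them in Control (26.97 ± 1.18 FPKM, SD). It lay below Egfl7 in Treatment (25.05 ± 1.62 against 26.27 ± 4.68). At the low end stood Erg (1.93 FPKM), Robo4 (1.41) and Fli1.

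**Figure D1:**
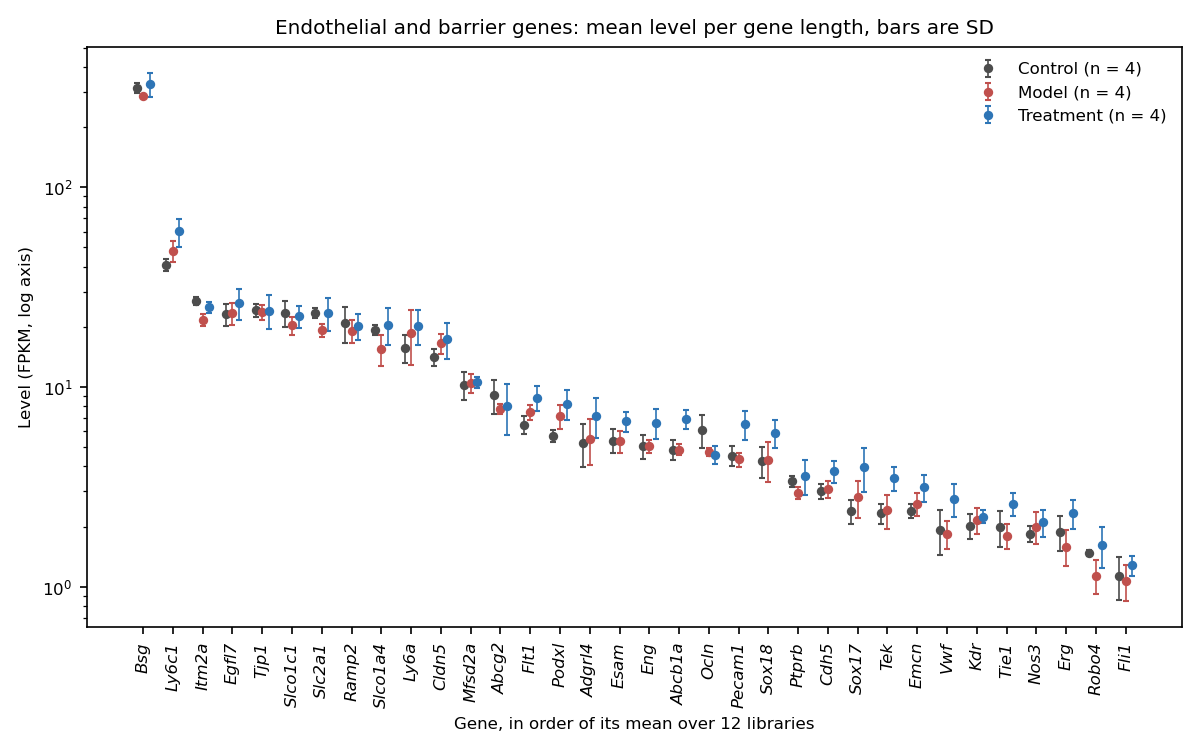
Mean level of each of the 34 genes per gene length, in FPKM on a log axis, for Control, Model and Treatment (points are means of 4 libraries and bars are SD). Bsg stands apart at a mean of 309.6 FPKM over 12 libraries, the lowest gene is Fli1 at 1.16, and the Treatment point is the highest of the 3 for most genes.

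All 3 contrasts come from a single edgeR quasi-likelihood fit over 12 libraries, with Benjamini-Hochberg adjustment over 18600 genes and a threshold of 0.05. Each contrast shares a group with both others, so their results are given side by side and are not independent. Fold changes are log2 values of the first group minus the second, with SE. Library values are CPM, counts scaled to a common library total with trimmed-mean (TMM) factors.

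In mice given the compound under stress, 32 of the 34 genes had a positive fold change against stressed mice given saline, with a median of 0.25 against 0.00 over all genes tested. In edgeR, 2 members rose, Pecam1 and Slco1a4, and none fell, while DESeq2 called 7 and limma-voom 2. DESeq2 added Abcb1a, Tek, Tie1, Eng and Erg, and edgeR with no count filter called 9. Of all genes, 1.18% rose and 0.704% fell in the main edgeR fit. DESeq2 called 554 of 18600 genes higher and 545 lower, limma-voom 198 and 120. With no count filter edgeR called 619 of 41961 genes higher and 471 lower. At an unadjusted p under 0.05, 21 members were higher, where 9.78% of all genes were, and 0 were lower, where 8.69% were. In 9 members every Treatment library lay above every Model library (5.14% of all genes), and in 0 every one lay below (4.36%). The members' summed level was 1059 to 1217 CPM in Treatment libraries, 952.5 to 1001 in Model libraries and 987.9 to 1057 in Control libraries. The larger part of this sum came from 6 members that other brain cells also make, Bsg among them. They gave 559.8 to 650.2 CPM in Treatment, 532.2 to 561.3 in Model and 539 to 606.1 in Control.

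Stress without the compound showed no such shift in the 34 members. Between Model and Control, 18 of 34 members were positive and the median was 0.01, against -0.01 over all genes tested. By edgeR 0 members rose and 1 fell, Itm2a, where 0.339% of all genes rose and 0.452% fell. DESeq2 called 2 members, Itm2a and Slco1a4, both lower, where it called 264 of 18600 genes lower and 428 higher. The limma-voom fit called 0 members. At an unadjusted p under 0.05, 2 were higher (Podxl and Flt1) and 4 lower (Slco1a4, Slc2a1, Ocln and Itm2a), where 7.72% of all genes were higher and 7.85% lower. Libraries did not overlap for 2 higher members, Tjp1 and Podxl (5.95% of all genes), and for 3 lower ones, Slco1a4, Slc2a1 and Itm2a (5.46%). These orders are in CPM. Per length, the Tjp1 mean was 24.18 ± 1.73 FPKM in Control and 23.75 ± 2.00 in Model (SD), so its direction depended on the measure.

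Treatment against Control gave 30 of 34 positive fold changes and a median of 0.23, against -0.01 over all genes. No member passed in edgeR in either direction, where 0.0645% of all genes rose and 0.0376% fell. DESeq2 called 7 of the 34, all higher, and limma-voom 0. The 7 were Pecam1, Podxl, Abcb1a, Tek, Flt1, Eng and Ly6c1, and edgeR with no count filter called the same 7 and Adgrl4. Of all genes, DESeq2 called 322 of 18600 higher and 118 lower, and edgeR with no count filter 424 and 324 of 41961. At an unadjusted p under 0.05, 14 members were higher and 1, Ocln, was lower, against 7.31% and 6.56% of all genes. Every Treatment library exceeded every Control library in 8 members (3.99% of all genes), and the reverse held for 0 (3.24%).

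**Figure D2:**
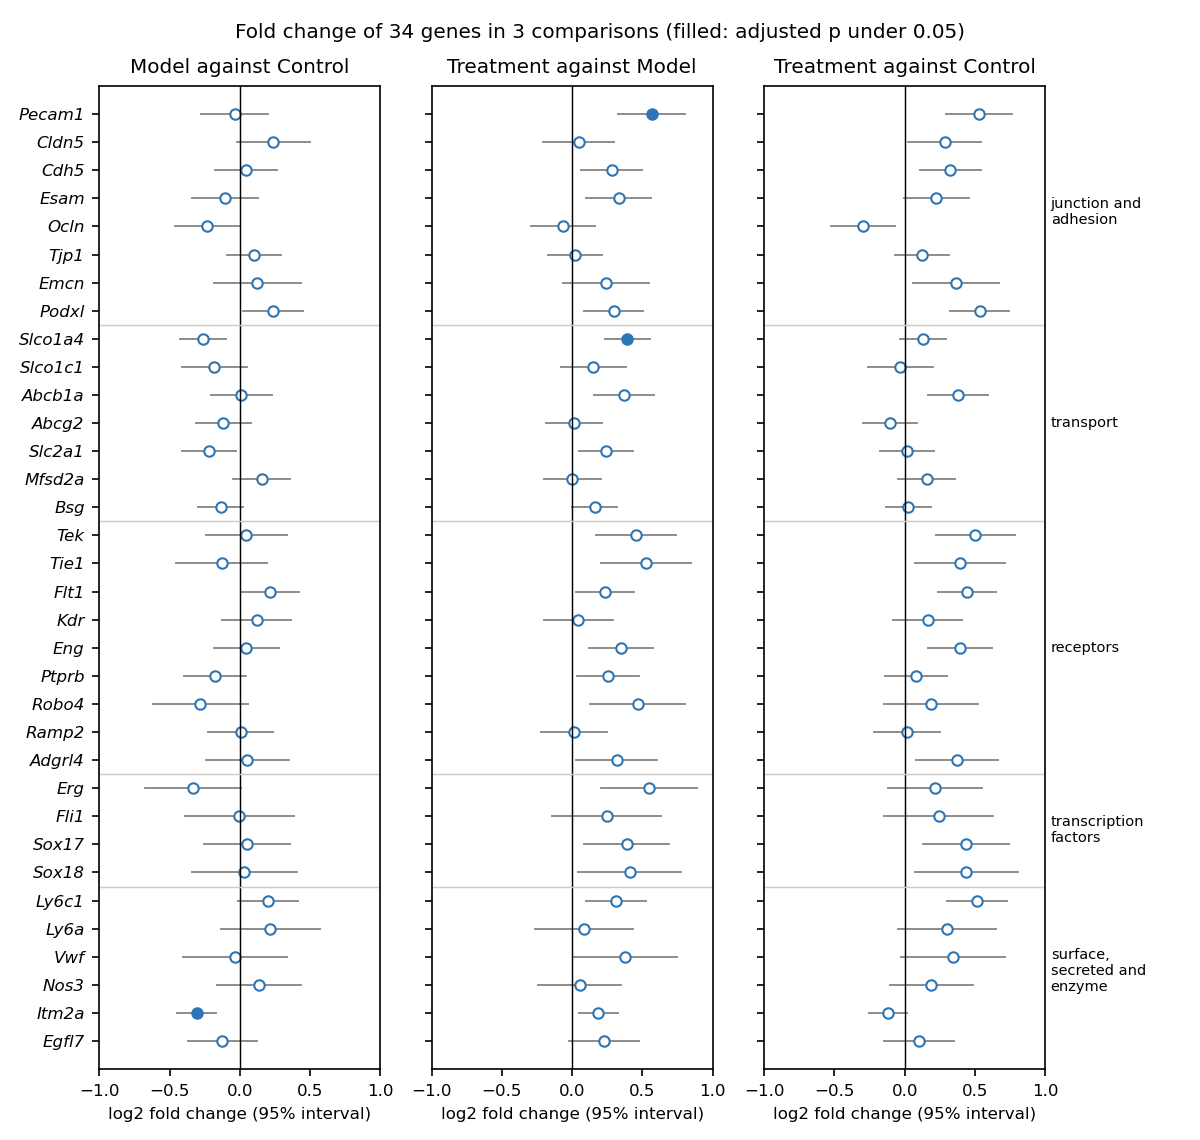
Log2 fold change of each of the 34 genes, grouped by role, in the 3 comparisons of the edgeR fit (points are estimates, lines their 95% intervals, filled points have an adjusted p under 0.05). Only Itm2a is filled in Model against Control and only Pecam1 and Slco1a4 in Treatment against Model, while most points of both Treatment panels lie right of 0.

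**Figure D3:**
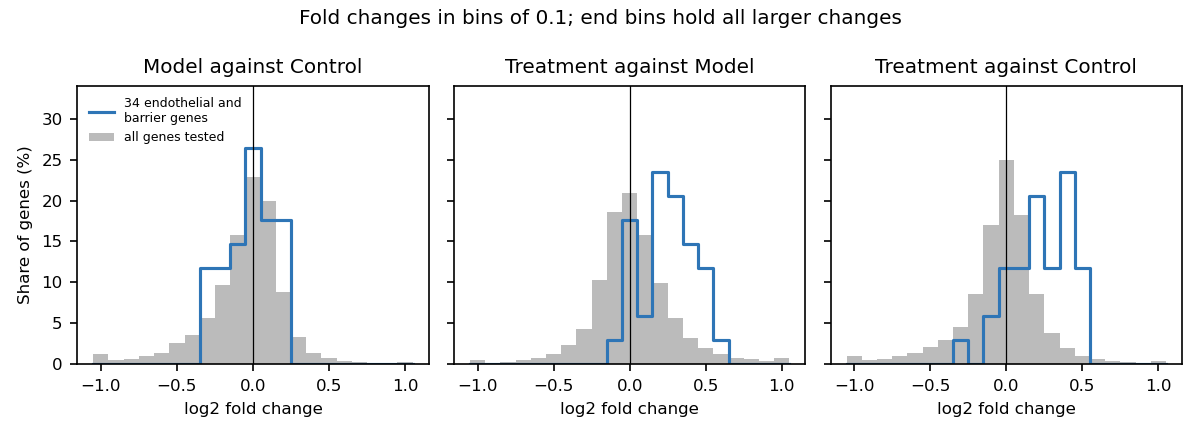
Share of genes in each bin of log2 fold change, 0.1 wide, for all 18600 genes tested (grey bars) and the 34 endothelial and barrier genes (blue line), in the 3 comparisons. The members centre near 0 in Model against Control (median 0.01) and to the right of 0 in Treatment against Model (median 0.25) and Treatment against Control (median 0.23).

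Group means took the order Control, Model, Treatment from low to high in 18 members and Model, Control, Treatment in 11. Treatment was thus the highest group in 29 of 34 members. The exceptions were Slco1c1, Abcg2 and Itm2a, highest in Control with Model lowest, Mfsd2a, highest in Model, and Ocln, highest in Control and lowest in Treatment. The single highest library was Treatment 2 for 17 members, Treatment 3 for 6 and Treatment 1 for 4. Treatment 2 exceeded every Model library in 27 members, Treatment 1 and Treatment 3 in 21 each, and Treatment 4 in 15. For these group orders and single-library counts, the share over all genes was not counted, so they stand without a background. Treatment 2 and 3 carry library numbers apart from the other 10 in the labels. Without these 2 libraries the median fold change against Model was 0.19, with 29 of 34 members positive, and no member passed.

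Among the junction and adhesion genes, 7 of 8 had a positive fold change in Treatment against Model and 1 rose, where 1.18% of all genes did. Pecam1, on chromosome 11 from 106545043 to 106606091 in the deposited GRCm39 annotation, encodes CD31, an adhesion protein at the contacts between endothelial cells. Its Control libraries read 11.6, 14.4, 12.5 and 15.2 CPM. Model libraries read 13.1, 13.4, 11.7 and 14.2 CPM, within the Control range. Treatment libraries read 19.5, 22.9, 19.3 and 16.0 CPM, all above the 8 others. Pecam1 rose by 0.57 ± 0.11 against Model (1.48-fold, edgeR adjusted p = 0.0256). Against Control the difference was 0.53 ± 0.11 and did not pass (adjusted p = 0.081), though it did in DESeq2 (0.00287) and in edgeR with no count filter (5.51e-05), with a range of 5.51e-05 to 0.313 over the alternatives. The fit with no count filter gave nearly the same difference, 0.539 ± 0.105, as the main fit. The call against Model was lost without Treatment 2 (0.48, adjusted p = 0.0674), without Model 2 (0.0918) and without Model 3 (0.0947). Over the alternatives the adjusted p against Model ranged from 2.18e-05 to 0.136.

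Cdh5, the gene of VE-cadherin, read 10.0, 10.9, 11.5 and 12.5 CPM in Control, 12.9, 11.2, 10.4 and 11.7 in Model and 14.0, 16.3, 13.4 and 12.7 in Treatment. The Treatment libraries were above all Control libraries, and the lowest of them fell within the Model range. Its fold change was 0.28 ± 0.10 against Model (adjusted p = 0.148) and 0.33 ± 0.10 against Control (0.169). Podxl encodes podocalyxin, a sialomucin of the luminal face of vessels that some neurons also make. It read 26.0, 30.4, 30.2 and 29.6 CPM in Control, 30.9, 36.7, 35.2 and 34.4 in Model and 41.7, 50.5, 42.0 and 34.1 in Treatment. Model libraries were all above Control libraries and 3 of 4 Treatment libraries above all Model libraries. The fold change against Control was 0.53 ± 0.10 in Treatment (adjusted p = 0.054) and 0.24 ± 0.10 in Model (0.261), so neither passed. Podxl did pass in Treatment against Control in DESeq2 (adjusted p = 0.000193) and, in edgeR, without Treatment 3 (0.0487), without Treatment 4 (0.0157) and with a filter of 1 CPM in 8 libraries (0.0415). Over the alternatives its adjusted p ranged from 2.35e-08, in edgeR with no count filter, to 0.313, in limma on FPKM without a filter.

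The tight junction genes proper differed little in Treatment against Model. Cldn5 differed by 0.05 ± 0.12, Ocln by -0.07 ± 0.11 and Tjp1, the gene of the scaffold ZO-1, by 0.02 ± 0.09, with 95% intervals of -0.21 to 0.30, -0.30 to 0.17 and -0.17 to 0.22. Cldn5 was lowest in Control, with means of 16.3 ± 1.62 CPM there, 19.2 ± 1.98 in Model and 19.8 ± 3.85 in Treatment (SD, n = 4). Neither of its differences against Control passed. Tjp1, the most abundant member of this role after length correction, read 100.4, 106.7, 104.7 and 98.8 CPM in Control and 108.8, 108.9, 115.9 and 107.7 in Model. Its Treatment libraries spread more widely, at 127.2, 126.7, 88.3 and 106.2 CPM, and held both the highest and the lowest of the 12 values. Ocln had mean levels of 15.3 ± 2.25 CPM (SD, n = 4) in Control, 12.99 ± 0.60 in Model and 12.4 ± 1.37 in Treatment. In Treatment against Control it had the most negative fold change of the 34, -0.30 ± 0.11 (adjusted p = 0.227). Esam (0.33 ± 0.11) and Emcn (0.24 ± 0.14), which encode an endothelial adhesion molecule and a sialomucin of veins and capillaries, did not pass against Model, though all Treatment libraries lay above all Model libraries in both.

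Of the 7 transport genes, 6 were positive in Treatment against Model, with a median of 0.16, and 5 were negative in Model against Control, with a median of -0.14. Slco1a4, on chromosome 6 from 141751166 to 141801897, encodes an organic anion transporter of brain capillaries, whose upstream sequence is shown above. It read 40.8, 41.5, 40.2 and 39.0 CPM in Control and 33.9, 29.6, 33.2 and 37.8 in Model. Treatment libraries read 47.7, 47.2, 40.3 and 41.6 CPM. The Model libraries lay below all 8 others, and Treatment overlapped Control. Slco1a4 rose by 0.39 ± 0.08 in Treatment against Model (1.31-fold, edgeR adjusted p = 0.0246). Its difference of -0.26 ± 0.08 in Model against Control did not pass (0.113), nor did 0.13 ± 0.08 in Treatment against Control (0.484). DESeq2 called the Model against Control difference (adjusted p = 0.0491, range over alternatives 0.0491 to 0.64). The rise against Model was not called without Treatment 2 (0.0663), without Model 2 (0.108), without Model 3 (0.0846) or when only the 8 libraries compared were fitted (0.0632), and its adjusted p ranged from 0.00023 to 0.411.

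Slc2a1, the glucose carrier GLUT1, showed the same order of groups, with means of 65.0 ± 2.02 CPM in Control, 55.7 ± 4.57 in Model and 65.9 ± 10.3 in Treatment (SD, n = 4). All Model libraries were below all Control libraries, and neither -0.22 ± 0.09 in Model against Control (adjusted p = 0.249) nor 0.24 ± 0.09 in Treatment against Model (0.168) passed. Slco1c1, a thyroxine carrier that astrocytes also make, differed by -0.18 ± 0.11 and 0.15 ± 0.11 in the same contrasts. Bsg read 309.4, 330.9, 327.1 and 291.4 CPM in Control, 287.1, 284.9, 292.1 and 281.5 in Model and 268.9, 321.1, 366.4 and 325.0 in Treatment. The Model values were close together and overlapped both other groups, and the fold change of 0.16 ± 0.08 against Model did not pass (adjusted p = 0.267).

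The exporter gene Abcb1a, which encodes P-glycoprotein, followed another order. It read 21.8, 23.4, 19.3 and 24.4 CPM in Control, 24.3, 21.2, 21.2 and 23.1 in Model and 29.7, 33.9, 23.4 and 28.8 in Treatment. Control and Model were alike in range, and 3 of 4 Treatment libraries were above all others. The difference of 0.37 ± 0.10 against Model did not pass (edgeR adjusted p = 0.071), and 0.38 ± 0.10 against Control did not either (0.125). Without Treatment 3, the low library, both passed, at 0.45 ± 0.09 (0.0206) and 0.46 ± 0.09 (0.0413). Its near copy Abcb1b, with which it could share reads, had estimated counts of 64.6 to 119.8 per library beside 332.3 to 669.5 for Abcb1a. Abcg2, the second major drug exporter, differed by 0.01 ± 0.09 in Treatment against Model (95% interval -0.18 to 0.21), and Mfsd2a, a carrier of omega-3 lipids that keeps transcytosis low, by 0.00 ± 0.10 (-0.20 to 0.20).

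**Figure D4:**
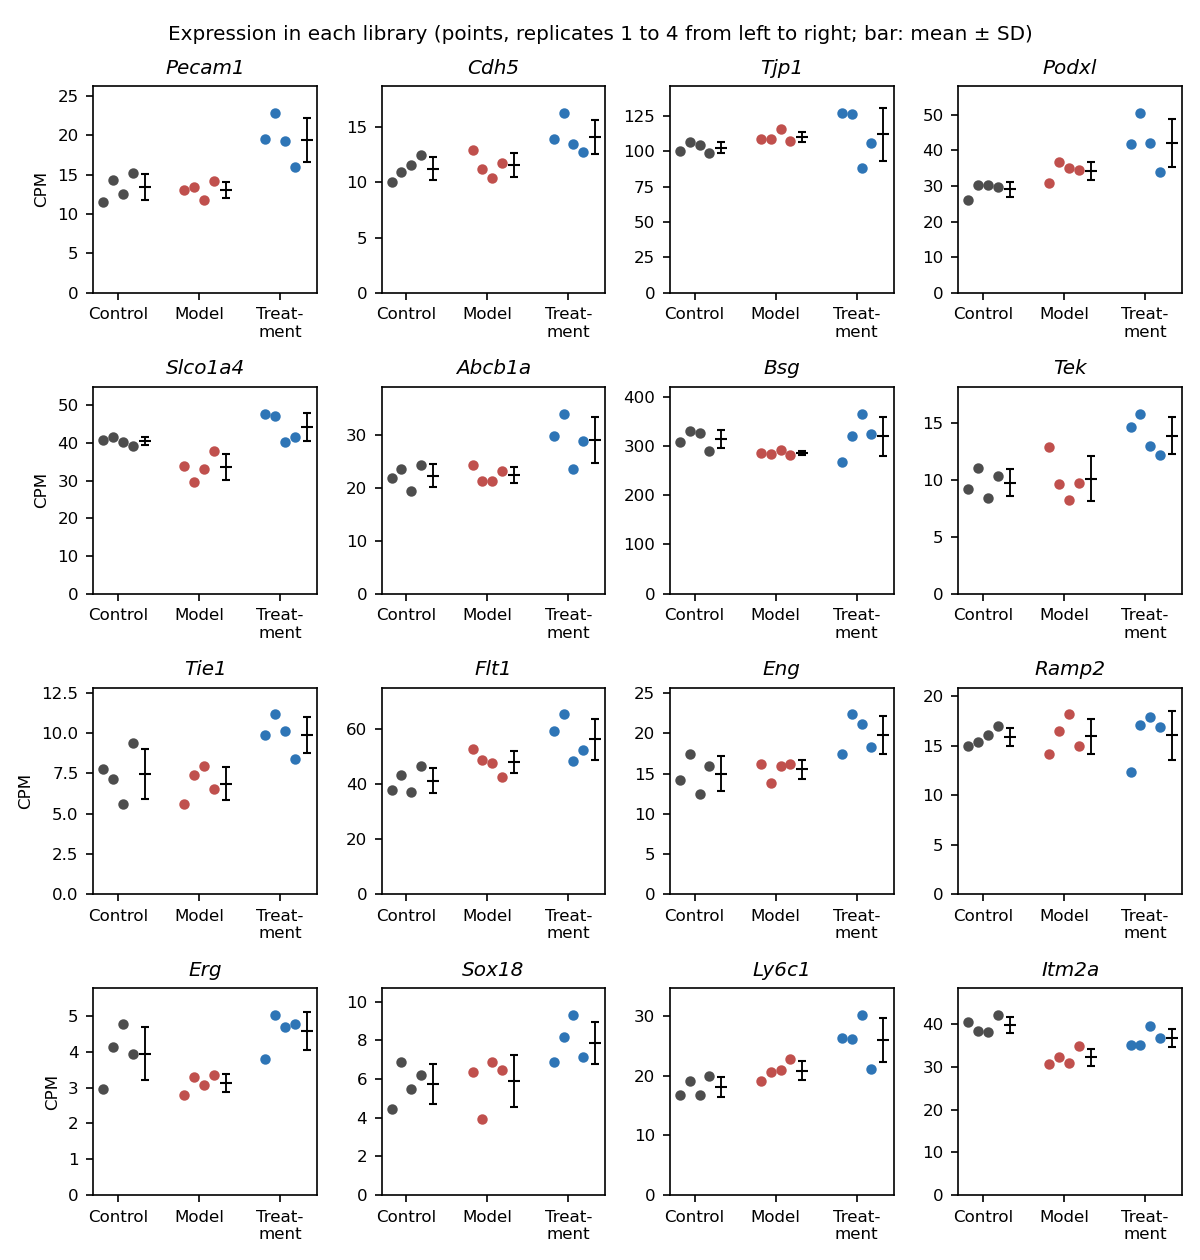
Level in CPM in each of 12 libraries for the 16 genes described with all values (points are libraries, replicates 1 to 4 from left to right, and the bar is the mean ± SD). Pecam1 in the 4 Treatment libraries lies between 16.0 and 22.9 CPM, above all other libraries, and Slco1a4 and Itm2a are low in Model.

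All 9 receptor genes had a positive fold change in Treatment against Model, with a median of 0.32, and none passed in edgeR. An unadjusted p under 0.05 was found for 7, all higher, where 9.78% of all genes were higher. DESeq2 called 3 receptor genes, Tek, Tie1 and Eng, where it called 554 of 18600 genes higher. Tek encodes Tie2, the receptor of the angiopoietins, and read 9.22, 11.04, 8.38 and 10.3 CPM in Control and 12.9, 9.64, 8.20 and 9.74 in Model. Its Treatment libraries read 14.7, 15.8, 12.9 and 12.2 CPM, all above Control, while Model 1 lay within their range. The difference against Model was 0.46 ± 0.13 (adjusted p = 0.0865), and without Model 1 it was 0.59 ± 0.12 and passed (0.0346). Tie1, the orphan partner of Tie2, read 7.77, 7.17, 5.59 and 9.36 CPM in Control, 5.60, 7.38, 7.97 and 6.52 in Model and 9.90, 11.2, 10.1 and 8.401 in Treatment. All Treatment libraries exceeded all Model libraries, with a fold change of 0.53 ± 0.15 (adjusted p = 0.0824).

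Flt1, the gene of the VEGF receptor VEGFR1, read 37.8, 43.4, 37.3 and 46.7 CPM in Control, 52.7, 48.7, 47.8 and 42.8 in Model and 59.3, 65.3, 48.5 and 52.3 in Treatment. Treatment was above all of Control and overlapped Model, and the fold change was 0.44 ± 0.10 against Control (adjusted p = 0.0891) and 0.23 ± 0.10 against Model (0.216). Against Control Flt1 passed in DESeq2 (0.00287) and, in edgeR, without Treatment 3 (0.0372) and with no count filter (1.53e-06). Its adjusted p ranged from that last value to 0.313 over the alternatives. Kdr, the gene of VEGFR2, the main signalling receptor, differed by 0.04 ± 0.12 against Model (95% interval -0.20 to 0.29). Whether the 2 receptors differ in their response was not tested. Eng, which encodes the TGF-beta coreceptor endoglin, read 14.2, 17.4, 12.5 and 15.9 CPM in Control, 16.2, 13.8, 15.9 and 16.2 in Model and 17.4, 22.4, 21.1 and 18.3 in Treatment. All Treatment libraries were above all Model libraries, and the difference of 0.34 ± 0.11 did not pass (adjusted p = 0.105).

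Ramp2, which encodes the partner of the adrenomedullin receptor, was the most abundant receptor gene per length and differed least between groups. It read 14.9, 15.4, 16.1 and 17.1 CPM in Control, 14.1, 16.5, 18.2 and 15.0 in Model and 12.4, 17.1, 17.9 and 16.9 in Treatment, so all groups overlapped. Its difference against Model was 0.01 ± 0.11 (95% interval -0.22 to 0.25). Robo4, a guidance receptor of vessels, differed by 0.46 ± 0.16 against Model (adjusted p = 0.132) and by -0.28 ± 0.16 between Model and Control (0.428). Ptprb, the gene of the phosphatase that restrains Tie2, and Adgrl4, an adhesion G protein-coupled receptor, differed by 0.26 ± 0.10 and 0.32 ± 0.14 against Model, and neither passed. Without Treatment 3, Ptprb passed (0.35 ± 0.09, adjusted p = 0.0457).

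The 4 transcription factors were positive in both Treatment contrasts, with medians of 0.40 against Model and 0.34 against Control, and none passed. Erg, an ETS factor of mature endothelium, read 2.96, 4.13, 4.77 and 3.92 CPM in Control and 2.80, 3.31, 3.08 and 3.35 in Model. Treatment libraries read 3.79, 5.02, 4.70 and 4.78 CPM, above all Model libraries and overlapping Control. The difference against Model was 0.55 ± 0.16 (adjusted p = 0.088). Sox18, a SOX factor of vessel development, was the most abundant of the 4 per length and read 4.47, 6.88, 5.47 and 6.21 CPM in Control and 6.36, 3.91, 6.85 and 6.44 in Model. Its Treatment libraries read 6.87, 8.16, 9.29 and 7.11 CPM, again above all of Model, with a difference of 0.41 ± 0.17 (adjusted p = 0.221). Its relative Sox17, an arterial factor, differed by 0.39 ± 0.14 against Model (0.158), and Fli1, an ETS factor that blood cells and microglia also make, by 0.24 ± 0.18 (0.517).

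Among the surface, secreted and enzyme genes, Itm2a was the only member called by edgeR in Model against Control. It lies on the X chromosome from 106440705 to 106446982 and encodes a transmembrane protein enriched in brain endothelium. Control libraries read 40.6, 38.5, 38.3 and 42.1 CPM. Model libraries read 30.7, 32.5, 30.9 and 35.0 CPM, and Treatment libraries 35.3, 35.1, 39.7 and 36.9 CPM. Model lay below all 8 others, and Treatment overlapped Control. Itm2a fell by 0.31 ± 0.07 on the log2 scale in Model (0.81-fold of Control, edgeR adjusted p = 0.0441). The difference of 0.19 ± 0.07 in Treatment against Model did not pass (0.136). The call was lost without any 1 of the 8 Control and Model libraries and without Treatment 4, with adjusted p from 0.0572 to 0.127, and in limma-voom (0.0502); over all alternatives the adjusted p ranged from 0.00356 to 0.171.

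Ly6c1 read 16.7, 19.1, 16.8 and 19.9 CPM in Control, 19.1, 20.5, 21.0 and 22.9 in Model and 26.4, 26.1, 30.1 and 21.2 in Treatment. Treatment was above all of Control, and Treatment 4 lay within the Model range. The difference was 0.51 ± 0.10 against Control (adjusted p = 0.0665) and 0.31 ± 0.10 against Model (0.111). Against Control Ly6c1 passed in DESeq2 (0.000996) and, in edgeR, without Treatment 4 (0.61 ± 0.09, adjusted p = 0.0289) and with no count filter (4.76e-06). Its adjusted p ranged from that last value to 0.25 over the alternatives. Its near copy Ly6c2 had at most 7 counts in any library, beside 288 to 597 for Ly6c1. Vwf, the clotting factor stored in endothelium, differed by 0.38 ± 0.17 against Model (adjusted p = 0.258), with 23.1 CPM in Treatment 2 and 12.8 to 16.2 in the other Treatment libraries. Egfl7, a secreted vessel protein, differed by 0.23 ± 0.12, Ly6a by 0.09 ± 0.16 and Nos3, the endothelial nitric oxide synthase, by 0.05 ± 0.14, and none passed.

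In all, 6 members, Bsg, Tjp1, Slc2a1, Slco1c1, Fli1 and Podxl, are also made by other brain cells. The other 28 members had a median of 0.30 in Treatment against Model and 0.29 against Control. A further list of 21 endothelial genes outside the set, among them Cd34, Icam2 and Plxnd1, had 20 positive fold changes against Model and a median of 0.29. None of the 21 passed in edgeR, and 7 had an unadjusted p under 0.05, all higher, where 9.78% of all genes were higher. Plxnd1, a semaphorin receptor of vessels and neurons, came closest, at 0.78 ± 0.20 (adjusted p = 0.0565). Of the 21, 15 were negative in Model against Control, with a median of -0.15. In Treatment against Control 15 were positive and 6 negative, with a median of 0.23. Their summed level was 222.8 to 260.4 CPM in Treatment, 177 to 216.1 in Model and 205.5 to 222 in Control, so Treatment lay above both other groups. The gap to Control in this sum depended on Plxnd1, at 57.3, 45.0, 37.3 and 59.5 CPM in Treatment and 34.7, 40.8, 21.4 and 37.3 in Control. Cux2, a neocortical layer marker, read 65.0, 50.9, 37.8 and 63.3 CPM in Treatment and 45.0, 43.7, 25.7 and 38.3 in Control. Treatment 3 and Control 3 were thus the lowest of their groups in both genes, and the part of neocortical cells in the Plxnd1 values was not tested. The mean centred log2 CPM, in which each gene counts equally, was 0.093 to 0.254 in Treatment, -0.255 to -0.035 in Model and -0.053 to -0.002 in Control.

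Of 17 other barrier transporters, 15 were positive in Treatment against Model, with a median of 0.24, and 2 rose, where 1.18% of all genes did. Slc7a5, the large neutral amino acid carrier, read 65.9, 72.9, 72.5 and 75.7 CPM in Treatment against 53.4 to 62.7 in Model and 52.3 to 62.2 in Control. It rose by 0.31 ± 0.07 (adjusted p = 0.037). Slc38a3, a glutamine carrier that astrocytes also make, read 70.3, 83.3, 84.0 and 72.7 CPM in Treatment, 47.3 to 61.8 in Model and 61.9 to 90.3 in Control, and rose by 0.49 ± 0.11 (0.0341). Treatment exceeded Model in every library of both genes.

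Of the ligands of the member receptors, 8 of 9 were tested, and in Treatment against Model 5 were positive and 3 negative. Their fold changes ran from -0.29 to 0.62 with a median of 0.34, and 2 genes rose, where 1.18% of all genes did. Vegfa, the main ligand of Kdr and Flt1, read 67.2, 64.5, 62.9 and 58.1 CPM in Treatment, 46.3 to 52.3 in Model and 53.7 to 58.4 in Control. It rose by 0.35 ± 0.06 against Model (adjusted p = 0.0179), and Model lay below both other groups in every library. Vegfb, a ligand of Flt1, read 44.4, 43.8, 51.9 and 56.2 CPM in Treatment and 35.7 to 39.8 in Model, and rose by 0.36 ± 0.08 (0.0385). In Model against Control the differences of -0.18 ± 0.06 for Vegfa and -0.17 ± 0.08 for Vegfb did not pass (adjusted p = 0.182 and 0.342).

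The Wnt pathway that induces the barrier had 10 of 17 positive fold changes in Treatment against Model and a median of 0.01. No gene passed, and 3 had an unadjusted p under 0.05, all higher, where 9.78% of all genes were higher. Reck, a coreceptor of this pathway, had the smallest p of the list, with 13.5 to 16.2 CPM in Control, 11.4 to 12.2 in Model and 13.9 to 14.5 in Treatment. Model lay below both other groups, but -0.30 ± 0.08 against Control (adjusted p = 0.0815) and 0.29 ± 0.08 against Model (0.065) did not pass. Other tight junction genes had 11 of 13 positive and a median of 0.12, and Pard3, a polarity scaffold, differed by 0.26 ± 0.07 between Model and Control (adjusted p = 0.0891). Arterial genes had 10 of 12 tested positive and a median of 0.28, venous and activated genes 6 of 7 and 0.15, and genes of caveolae and fenestrae 7 of 7 and 0.12. Gkn3, an arterial marker with 7 to 37 counts per library, differed by -1.03 ± 0.33 in Model against Control (adjusted p = 0.144) and by 1.09 ± 0.33 in Treatment against Model (0.0963). Plvap, the diaphragm protein of fenestrated vessels, differed by 0.42 ± 0.13 in Treatment against Model (0.107). No gene of these lists passed in any of the 3 comparisons in edgeR.

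Genes of other cell types were compared in the same way. Of 12 tested pericyte and smooth muscle genes, 11 were positive in Treatment against Model with a median of 0.27, and their summed level was 251.4 to 280.2 CPM in Treatment, 214.6 to 223.6 in Model and 217.5 to 235.7 in Control. None passed, and Pdgfrb, the receptor that defines pericytes, was closest (0.26 ± 0.07, adjusted p = 0.0573). In Model against Control 10 of these 12 genes were negative, with a median of -0.105. Treatment against Control gave 11 positive fold changes and a median of 0.195. Neocortical layer markers summed to 372 to 430 CPM in Treatment, 311.4 to 364.7 in Model and 305.9 to 366.8 in Control. In Treatment against Model 7 of 8 were positive and 1, Cux2, was higher (0.81 ± 0.18, adjusted p = 0.0366), where 1.18% of all genes were. Hippocampal subfield markers had 7 of 8 negative, a median of -0.33 and 1 gene, Prox1, lower (-0.43 ± 0.10, 0.0332), where 0.704% of all genes were. Microglial genes had 8 of 8 positive with a median of 0.12, and astrocyte and neuron genes had medians of -0.01 and -0.04. In the cell lists with no gene passed, the smallest p belonged to Siglech of microglia (-0.31 ± 0.08 in Model against Control, adjusted p = 0.082), Gad1 of neurons (0.23 ± 0.06 in Model against Control, 0.104), Aqp4 of astrocytes (-0.24 ± 0.07 in Treatment against Control, 0.154) and Lyve1 of perivascular macrophages (0.61 ± 0.26 in Treatment against Control, 0.314). No listed marker of the pericyte, neocortical, hippocampal or microglial lists was at 0 in any library. The part of these differences in the endothelial result was not tested.

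Choroid plexus genes differed most in Model against Control. All 12 were negative, with a median of -1.23, and 1 passed, Sostdc1 (-1.21 ± 0.26, adjusted p = 0.0469), where 0.452% of all genes were lower. Their summed level was 1826, 2251, 2442 and 745.4 CPM in Control and 623.6 to 897.9 in Model, so Control 4 lay among the Model libraries. In the same contrast Igf2 of the leptomeningeal list fell by 1.00 ± 0.18 (adjusted p = 0.0212) and Hbb-bt, a globin of red blood cells, by 0.84 ± 0.17 (0.0316). The summed choroid plexus level in Treatment was 490.1, 1509, 1142 and 515.5 CPM, with Treatment 2 and 3 the high ones. The part of choroid plexus in the Model against Control values of the members, Itm2a included, was not tested.

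**Figure D5:**
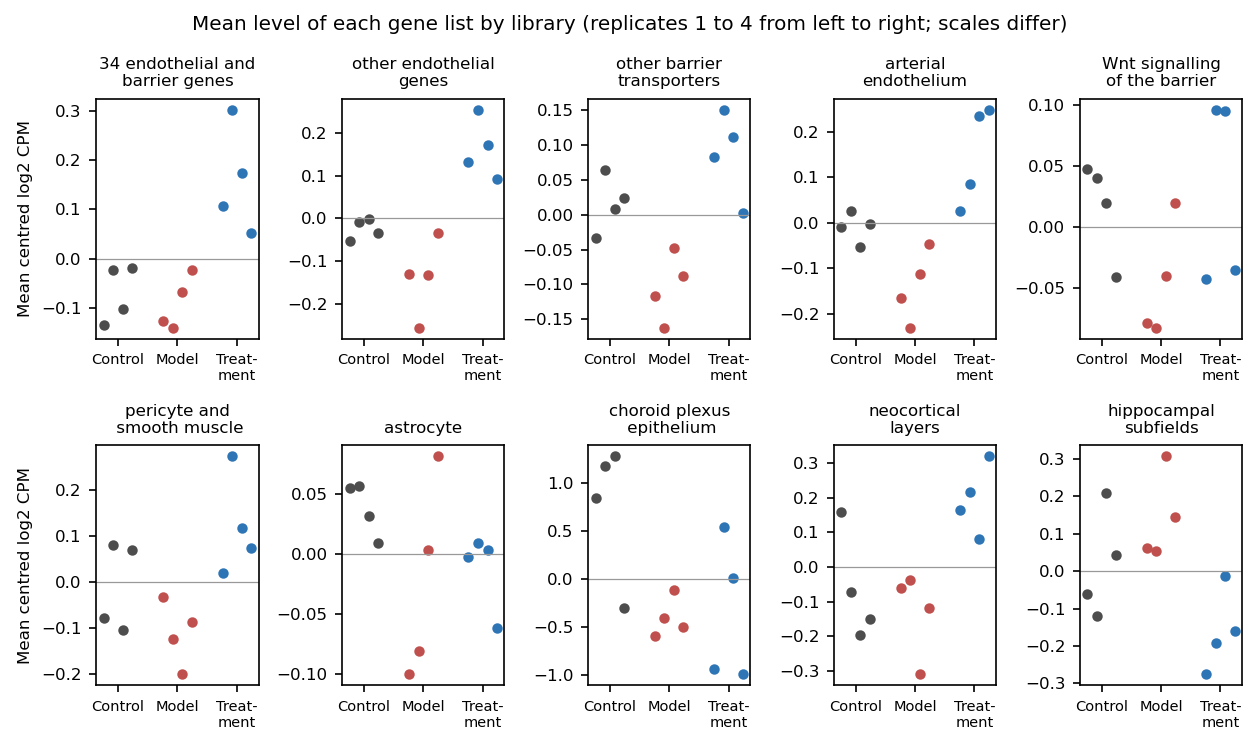
Mean centred log2 CPM of 10 gene lists in each library (points, replicates 1 to 4 from left to right within a group, each panel on its own scale). The 34 endothelial and barrier genes score 0.05 to 0.30 in Treatment libraries and -0.14 to -0.02 in Model and -0.13 to -0.02 in Control libraries, and the pericyte and neocortical lists are also above Model in every Treatment library.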

How the data were processed

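RNA from mouse hippocampus was sequenced in 12 libraries of polyadenylated RNA in 3 groups, which were taken from the sample titles. The authors deposited 1 table of estimated counts and FPKM per gene. Salmon 1.10.1, STAR 2.7.10a, cutadapt 3.4, Trim Galore 0.6.7 and FastQC 0.12.1 are named in the submitters' processing notes, as is build GRCm39 (mm39). The roles of these tools and the use of strand are not given in the sources used here. Of the deposited count values, 28.82% were not whole numbers, and all were rounded before testing.

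Counts were tested with edgeR 4.0.16 (filterByExpr, TMM scaling, glmQLFit and glmQLFTest, no covariates, R 4.3.3) in 1 model of 3 group means with 9 residual degrees of freedom. No column was left unmapped. CPM values were scaled by TMM factors; list scores are means of log2 CPM (prior count 2) centred over the 12 libraries. DESeq2 1.42.0, limma-voom and limma 3.58.1 on log2(FPKM + 0.1 or 1) were alternatives, beside other filters, a replicate block, fits of 8 libraries and fits without single libraries. On simulated data for Treatment against Model, with 18309 genes fitted, edgeR called 39.39% of genes changed by 0.4 and 69.23% of those changed by 0.8 on the log2 scale. Figures were drawn with matplotlib 3.10.9.

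The members and gene lists were chosen with earlier results of these data known. Values in every library are given for members that passed in any comparison, for the 12 members of smallest p and for the most abundant member of each role by FPKM, 16 in all. Of other lists, genes that passed are named, or else the gene of smallest p. No list was tested as a set. The smallest chi-square per degree of freedom between libraries of a group was 4.56, so no library was counted as a copy.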

Additional observations from a re-analysis of the deposited data

Results flagged for a closer look

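Of 102 groups of 4 libraries (34 genes in 3 groups), 5 held a library whose gap to its nearest neighbour exceeded 0.829 of the group's range, Dixon's 95% critical value; chance gives about 1 in 20. Eng was 13.8 CPM in Model 2, below 15.9 to 16.2 in the other Model libraries. Sox18 was 3.91 CPM in the same library, against 6.36 to 6.85 in the others. Ocln was 12.1 CPM in Model 1, against 13.2 to 13.3 in the others. Tjp1 was 115.9 CPM in Model 3, against 107.7 to 108.9 in the others. Vwf was 15.2 CPM in Control 4, above 11.6 to 12.2 in the other Control libraries. Without Model 2, and likewise without Model 3, no member and 0 of 18600 genes passed in Treatment against Model in edgeR.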

How the results depend on the processing

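Of the 34 genes, 1 passed in Model against Control, 2 in Treatment against Model and 0 in Treatment against Control, and of all genes 147 (63 higher, 84 lower), 350 (219 higher, 131 lower) and 19 (12 higher, 7 lower). No member's called value changed sign under any alternative. In the same order, DESeq2 gave 2, 7 and 7 members and 692 (428 higher, 264 lower), 1099 (554 higher, 545 lower) and 440 genes (322 higher, 118 lower). With no count filter the members were 1, 9 and 8 and the genes 783, 1090 and 748. That fit tested 41961 genes, and in Treatment against Control Podxl (0.544 ± 0.083), Flt1 (0.456 ± 0.078) and Ly6c1 (0.524 ± 0.093) differed by nearly as much as in the main fit. Their far smaller adjusted p values there thus did not rest on clearly larger differences. Fits of only the 8 libraries compared gave 1 member in Treatment against Model and 438, 96 and 2 genes. Without Treatment replicates 2 and 3 together, 0 members passed in Treatment against Model, and 306, 130 and 135 genes passed in the 3 comparisons. In limma-voom 0 members passed in Model against Control, with 88 genes there and 9 in Treatment against Control. RLE scaling left 12 genes in Treatment against Control, and a filter of 1 CPM in 8 libraries called 1 member there. FPKM in limma called 0 members in the first 2 comparisons under each of 3 settings. With pseudocount 0.1, pseudocount 1 and pseudocount 0.1 without a filter, it called 5, 5 and 8 genes in Model against Control and 114, 111 and 10 in Treatment against Model. In Treatment against Control pseudocount 1 gave 9 genes and no filter 12.

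Leaving out each library in turn gave 0 to 1 members and 8 to 275 genes in Model against Control, 0 to 4 members and 0 to 483 genes in Treatment against Model, and 0 to 3 members and 0 to 78 genes in Treatment against Control. The median fold change of the members stayed between 0.21 and 0.29 in Treatment against Model, between 0.19 and 0.29 in Treatment against Control and between -0.04 and 0.06 in Model against Control. The cause of these changes was not tested.

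Same-numbered libraries of different groups correlated by -0.04 to 0.11 over all genes, with 1 of 12 pairs over 0.1, and 4 of 12 libraries were closest to their own number. Such correlations cannot decide whether the replicate numbers mark a block that touches some genes. A replicate block gave 228 genes in Model against Control, 431 in Treatment against Model and 118 in Treatment against Control, with 1, 3 and 2 members. Without the block, the main fit gave 147, 350 and 19 genes, with 1, 2 and 0 members.

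The members with the fewest counts, such as Fli1 at 52 to 99 per library, have wide intervals (-0.14 to 0.63 for Fli1 in Treatment against Model), and a member that did not pass is not shown to be unchanged.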

Other observations

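Lcn2, the gene of lipocalin 2, an iron-binding protein of inflamed endothelium and reactive astrocytes, had the largest fold change of the fixed lists in Model against Control, 4.52 ± 1.17 (edgeR adjusted p = 0.0802), and did not pass. It had 0 to 2 counts in each Control library. The Model libraries had 3, 17, 14 and 66 counts and the Treatment libraries 22, 17, 57 and 1. The Model libraries were thus all above Control, and Treatment 4 was at the Control level. Treatment against Control gave 4.60 ± 1.17 (adjusted p = 0.118) and Treatment against Model 0.08 ± 0.75 (0.973). Lcn2 was singled out by its smallest p among the venous and activated endothelial genes, and at counts this low a fold change is imprecise.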
